A study of Mus musculus with 8 samples.

Results

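The 4 genes described here encode the PAR bZIP transcription factors Dbp, Tef and Hlf and the related repressor Nfil3, which all bind the D-box, a short regulatory DNA element. They were taken by name from the 21887 protein-coding genes of the RefSeq table for mouse GRCm38.p6, and all 4 were found. For each gene the ends of paired-end tags (PETs) were counted over its annotated span and 2.5 kb on either side. The data came from RNA polymerase II (Pol II) ChIA-PET of mouse liver, an assay that immunoprecipitates Pol II with its DNA, ligates DNA ends held in one complex and reads both ends as a PET. A PET end over a gene therefore marks DNA found in the precipitate, and the other end marks what it was ligated to. No control library was among the samples, so unspecific DNA and random ligation were not measured. All libraries came from wild type C57BL/6 mice aged 3 to 6 months, kept under alternating light and dark and fed freely. Livers were taken at ZT06, in the day, or at ZT18, in the night, chromatin of 3 to 7 livers was combined for each immunoprecipitation, and the antibody was 8WG16, which recognises the C-terminal repeat domain of the largest Pol II subunit. Experiment 1 (JM08) had 4 libraries and experiment 3 (JM12) had 2, all crosslinked with 1.5 mM EGS and 1% formaldehyde. Experiment 2 (JM11) had 2 libraries crosslinked with 1% formaldehyde alone. Every experiment held as many ZT06 as ZT18 libraries, and the deposited table gives neither the library nor the time of a PET, so each value below is that of one pool of day and night livers. Day and night were not compared.

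PAR bZIP factors are output regulators of the circadian clock. In the liver the clock activator BMAL1-CLOCK drives the Dbp gene through E-boxes, and Dbp, Tef and Hlf then activate genes with D-boxes, among them clock genes and genes of drug, bile acid and lipid metabolism. Nfil3, also called E4BP4, binds the same D-box and represses it, and its own gene is controlled by ROR activators and REV-ERB repressors, so activators and repressor act on shared targets at different times of day.

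The table held 474478 PETs in experiment 1, 1438866 in experiment 2 and 840210 in experiment 3, which gave 948932, 2877704 and 1675942 ends on nuclear chromosomes. A density below is the number of ends per kb divided by the mean number per kb of the nuclear genome in the same experiment, called the relative density, so that 1 is the genome's mean. Intervals are 95% exact Poisson intervals. They cover counting error only, not the spread between livers or libraries, which cannot be measured in pooled data. They also treat each end as an independent count, although both ends of a short PET often fall in one window. In experiment 1, 37 of the 117 PETs over Dbp had both ends there. Intervals and tests on ends are therefore too narrow, most of all in experiment 1, where short PETs were most common. In whole liver, more cells of a type and more Pol II in each cell cannot be told apart. The label of liver was checked against marker genes. Of 5 hepatocyte marker genes, 5, 4 and 4 lay above the nuclear mean in experiments 1, 2 and 3, with median relative densities of 52.3, 7.91 and 13.1, against 1, 1 and 2 of 6 marker genes of other liver cells, with medians of 1.10, 1.25 and 1.48. Serpina1c, which has near-identical copies, was the hepatocyte gene that did not pass in experiments 2 and 3, with relative densities of 0.492 and 1.59.

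The sequences just before the annotated starts are shown for the genes whose starts the results below turn on: Dbp, the densest of the 4, the first and second start of Tef, which differed in PET ends, and Nfil3, where ends gathered at the start. Each is the 250 bases before the start, 5′ to 3′ on the gene's strand, from RefSeq GRCm38.p6, with matches to the searched motifs in capitals. The windows are chr7:45704997-45705246 on the plus strand for Dbp, chr15:81802423-81802672 and chr15:81811164-81811413 on the plus strand for Tef, and chr13:52981040-52981289 on the minus strand for Nfil3.
Dbp: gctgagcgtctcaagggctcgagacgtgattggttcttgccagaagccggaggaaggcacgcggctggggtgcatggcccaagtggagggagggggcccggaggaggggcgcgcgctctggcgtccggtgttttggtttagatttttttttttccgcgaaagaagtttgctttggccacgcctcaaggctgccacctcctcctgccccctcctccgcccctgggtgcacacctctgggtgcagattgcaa
Tef start 1: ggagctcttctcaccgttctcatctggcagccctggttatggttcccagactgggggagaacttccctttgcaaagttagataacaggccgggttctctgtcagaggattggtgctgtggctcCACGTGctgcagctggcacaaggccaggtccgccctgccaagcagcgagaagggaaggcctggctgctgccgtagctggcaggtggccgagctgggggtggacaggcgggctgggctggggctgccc
Tef start 2: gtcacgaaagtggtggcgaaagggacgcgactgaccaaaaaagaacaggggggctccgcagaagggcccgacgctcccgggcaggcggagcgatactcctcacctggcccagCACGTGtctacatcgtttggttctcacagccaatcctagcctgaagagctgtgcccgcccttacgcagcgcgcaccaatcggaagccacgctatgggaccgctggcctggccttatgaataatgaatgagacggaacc
Nfil3: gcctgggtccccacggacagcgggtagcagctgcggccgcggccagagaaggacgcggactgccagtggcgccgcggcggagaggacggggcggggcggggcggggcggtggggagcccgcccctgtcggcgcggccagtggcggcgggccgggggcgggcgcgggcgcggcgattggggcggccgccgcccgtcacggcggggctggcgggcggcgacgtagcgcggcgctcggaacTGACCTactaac
Motifs were searched on both strands of these windows: the E-box CACGTG, bound by BMAL1-CLOCK, the D-box as TTATGTAA, TTACATAA or TTACGTAA, bound by the members themselves, and the core AGGTCA, read on the other strand as TGACCT, that ROR and REV-ERB receptors bind. Each start of Tef had 1 CACGTG, at bases -127 to -122 before the first start and at -138 to -133 before the second, counting back from the base just before the start. Nfil3 had 1 TGACCT, at -12 to -7. No D-box letters were found in any of the 5 windows of the members, and neither Dbp nor Hlf (chr11:90390918-90391167, minus strand) held any of the letters searched. Among 32851 promoter windows of the same length, CACGTG was present in 6.02%, the D-box in 0.931% and the receptor core in 14.0%. A match is a description of letters and not a measured binding site, and no match says only that these letters are not in this window. The Nfil3 window was the richest in G and C, with 81.6% against a median of 52.4% over all windows, and the others ranged from 60.4% to 67.2%.

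Dbp was the member most densely covered by PET ends, and Tef and Nfil3 followed. Hlf was the lowest in each experiment, with relative densities of 1.56, 1.25 and 1.95. Above the nuclear mean, by a one-sided exact Poisson test with Benjamini-Hochberg adjustment over all 21887 genes and an adjusted p under 0.05, were 4 of the 4 members in experiment 1, where 30.8% of all genes were, 3 of 4 in experiment 2, where 25.0% were, and 4 of 4 in experiment 3, where 44.5% were. Dbp, Tef and Nfil3 passed in every experiment, as did 11.6% of all genes, and Hlf did not pass in experiment 2. A relative density over 1 in every experiment, without a test, was found for 4 of 4 members and for 45.0% of all genes. These tests compare the ends of one pool with that pool's own mean and do not compare conditions.

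**Figure D1:**
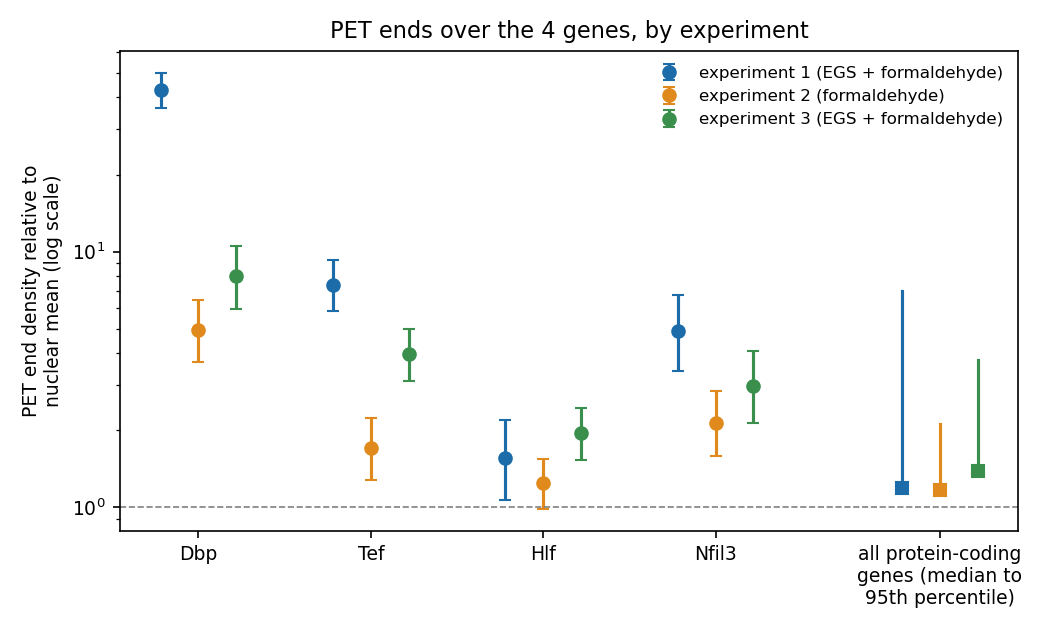
Relative density of PET ends over each gene and 2.5 kb on either side in the 3 experiments (log axis, dashed line at the nuclear mean of 1). Points are the pools and bars are 95% exact Poisson intervals, while squares and lines at the right run from the median to the 95th percentile of all protein-coding genes; Dbp stands highest in every experiment, at 42.7, 4.94 and 8.02.

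Dbp (chr7:45705100-45710203, plus strand, 5104 bp) is the PAR bZIP factor with a strongly rhythmic liver transcript. It had 154, 54 and 51 ends in experiments 1, 2 and 3. The relative densities were 42.7 (36.3 to 50.1), 4.94 (3.71 to 6.45) and 8.02 (5.97 to 10.5), so that the intervals of experiment 1 stood apart from those of the other two pools. Dbp thus stood near the top of all 21887 genes, at rank 33, 88 and 134, with adjusted p of 1.9e-185, 1.3e-18 and 1.1e-26 by the exact Poisson test. The ends were spread over many positions: 127 distinct positions carried the 154 ends of experiment 1, with at most 5 ends at one position, and 54 carried the 54 of experiment 2.

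Tef (chr15:81802673-81826863, plus strand, 24191 bp) encodes thyrotroph embryonic factor, expressed in many tissues. Its 77, 54 and 73 ends gave relative densities of 7.40 (5.84 to 9.25), 1.71 (1.29 to 2.23) and 3.97 (3.11 to 4.99). Tef ranked 1007 in experiment 1, 2356 in experiment 2 and 954 in experiment 3, and exceeded the 95th percentile of all genes, 7.03 and 3.78, in experiments 1 and 3 but not that of experiment 2, 2.11. The experiment 2 value was the lowest, with an adjusted p of 0.00159 by the exact Poisson test, and it was not called in 3 of 13 other settings, such as PETs between chromosomes alone (1.39, adjusted p 0.121).

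Nfil3 (chr13:52967209-52982878, minus strand, 15670 bp) encodes the D-box repressor, which also acts in immune cell development. It had 36, 48 and 39 ends, and relative densities of 4.88 (3.42 to 6.76), 2.15 (1.58 to 2.85) and 3.00 (2.13 to 4.10). Its rank was 1917, 1039 and 2011, so its place was highest in experiment 2, the reverse of Tef. Its experiment 3 call was lost in 1 of 13 other settings, PETs within 8 kb alone (3.12, adjusted p 0.0559, exact Poisson test). In experiment 2 the interval of Nfil3 overlapped that of Tef, and in experiments 1 and 3 the upper bound of Nfil3 also lay above the lower bound of Tef.

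Hlf (chr11:90336535-90390917, minus strand, 54383 bp) encodes hepatic leukemia factor and is the longest of the 4 genes. It had 33, 80 and 73 ends, for relative densities of 1.56 (1.07 to 2.19), 1.25 (0.988 to 1.55) and 1.95 (1.53 to 2.45). The medians over all genes were 1.19, 1.17 and 1.39, and Hlf ranked 7919, 8978 and 5573, in the upper part of all genes but far from the other members. By the exact Poisson test the adjusted p was 0.0350, 0.102 and 1.3e-06 in the same order, so experiment 2 missed the threshold. The experiment 1 call was lost in 10 of 13 other settings (relative density 1.31 to 2.10), among them 5 kb of flank, with 1.48 and an adjusted p of 0.0567. The same flank brought Hlf past the threshold in experiment 2, with 1.32 and an adjusted p of 0.0274, both by the exact Poisson test. The Hlf interval lay below that of Nfil3 in experiments 1 and 2 and overlapped it in experiment 3, and it overlapped that of Tef in experiment 2.

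The linker sequence divides each experiment into a pair of subsets, whose tie to libraries or times was not given in the sources used here. In experiment 1 Dbp had a relative density of 49.5 (38.8 to 62.2) with linker ATGT and 38.1 (30.2 to 47.3) with TAAG. In experiment 3 Tef had 5.49 (4.05 to 7.28) with ATGT and 2.59 (1.68 to 3.83) with TAAG, and these intervals did not overlap. In the same experiment Nfil3 had 3.07 (1.85 to 4.79) and 2.93 (1.79 to 4.53), with intervals that nearly coincide. In the other members and experiments the intervals of the subsets overlapped, and the order Dbp above Tef and Nfil3 and these above Hlf held in all 6 subsets. The subsets are not treated as day and night.

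The comparison the design allows is between the pools with EGS (experiments 1 and 3) and the pool without it (experiment 2). The crosslinker, the experiment and its livers change together and cannot be told apart, and an exact permutation over 2 pools against 1 cannot give a two-sided p below 0.333. Ratios of relative densities were therefore tested only as counts of one pool against another, by a two-sided exact binomial test adjusted over all genes, which compares these pools and not crosslinkers.

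Between experiments 1 and 2, Dbp, Tef and Nfil3 were denser in experiment 1, and all 3 passed the test, as did 18.8% of all genes in that direction and 3.39% in the other. Dbp was 8.65 times as dense in experiment 1 (6.30 to 12.0, adjusted p 3.6e-47), Tef 4.32 times (3.01 to 6.24, adjusted p 1.9e-14) and Nfil3 2.27 times (1.43 to 3.58, adjusted p 0.00321), by the exact binomial test. The ratio for Hlf was 1.25 (0.808 to 1.90) and did not pass (adjusted p 0.633, exact binomial test). The median over all genes was 1.16, and over the 2528 genes above the mean in all 3 experiments it was 2.51, with a 95th percentile of 6.29. Against these genes Dbp lay beyond the 95th percentile and Nfil3 near the median. With PETs between chromosomes alone, Nfil3 fell to a ratio of 1.47 and did not pass (adjusted p 0.704), while Dbp, at 6.99, and Tef, at 2.92, did.

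Between experiments 3 and 2, Tef alone of the 4 passed, 2.32 times as dense in experiment 3 (1.61 to 3.36, adjusted p 0.000129, exact binomial test), where 12.8% of all genes passed as higher and 1.78% as lower. The ratios were 1.62 (1.08 to 2.42, adjusted p 0.0938) for Dbp, 1.57 (1.13 to 2.18, adjusted p 0.0506) for Hlf and 1.40 (0.890 to 2.17, adjusted p 0.399) for Nfil3, by the same exact test. These 3 intervals overlap that of Tef, and the difference between Tef and the others was not tested. Between experiments 1 and 3, which share the crosslinkers, Dbp was 5.33 times as dense in experiment 1 (3.86 to 7.47, adjusted p 9.8e-27) and Tef 1.86 times (1.33 to 2.60, adjusted p 0.00463, exact binomial test), where 6.56% of all genes passed as higher and 2.57% as lower. Tef did not pass with PETs between chromosomes alone (1.18, adjusted p 1.00). Nfil3, at 1.63 (1.01 to 2.63, adjusted p 0.248), and Hlf, at 0.798 (0.513 to 1.22, adjusted p 0.749, exact binomial test), did not pass either. For Dbp the ratio between the 2 pools with EGS, 5.33, was larger than that between experiments 3 and 2, 1.62. The 3 comparisons share pools. The scale moves these counts: relative to the median gene in place of the nuclear mean, 55.6% of the genes that passed between experiments 3 and 2 were higher in experiment 3, against 87.8%, and 93.5% of those between experiments 1 and 3 were higher in experiment 1, against 71.9%. On that scale the calls of the 4 members stayed as given, Tef at 1.96 between experiments 3 and 2 and Dbp at 6.22 between experiments 1 and 3.

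The ends lay at different places along the 4 genes. Windows of 1 kb on either side of each annotated start were set beside the same windows at 21263 starts of 17492 genes, whose median relative densities were 2.80, 1.39 and 2.38 in experiments 1, 2 and 3. Of the 5 annotated starts of the members, 4 were denser than their whole gene window with the 3 experiments together, and the start of Dbp was the exception. By experiment the Hlf start was below its gene window in experiments 1 and 2, and the Dbp start was above its own in experiment 2. With windows of 2.5 kb the count was 3. The share of all starts denser than their own gene window was not counted. The median start already lay above the median gene, at 1.19, 1.17 and 1.39, so the count is not read as particular to the members.

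**Figure D2:**
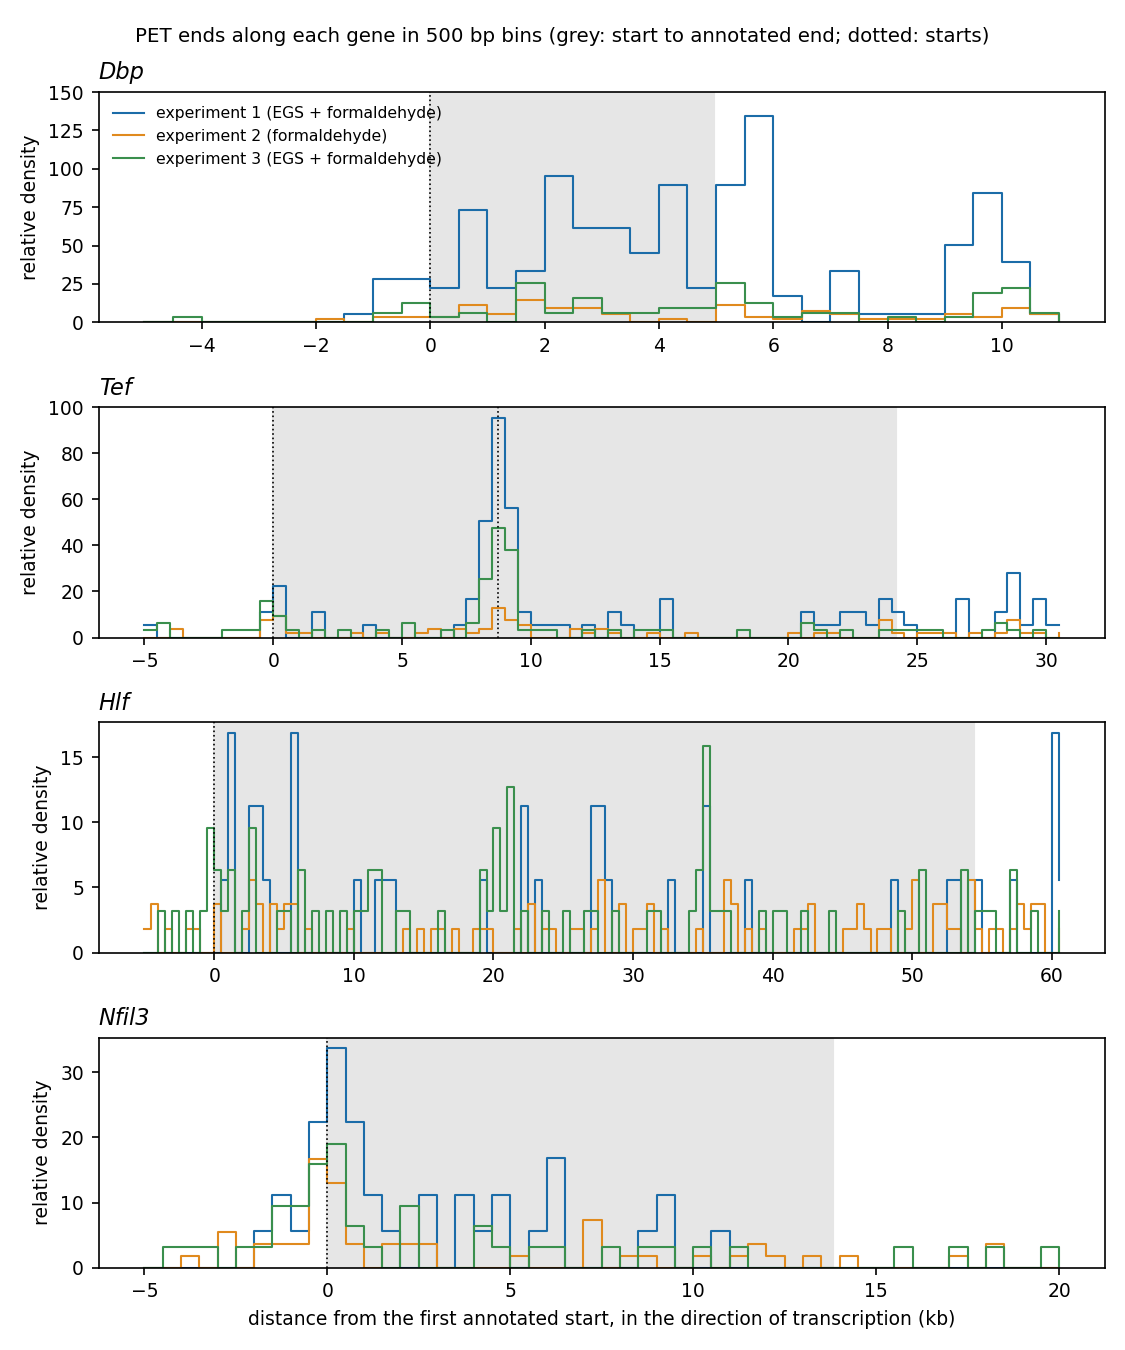
Relative density of PET ends in bins of 500 bp along Dbp, Tef, Hlf and Nfil3, by distance in kb from the first annotated start in the direction of transcription, with one line for each experiment. Grey marks the annotated gene from that start and dotted lines mark starts; the Dbp ends reach past the annotated end, the Tef ends peak at the second start and the Nfil3 ends at its start in the promoter table.

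In Tef the second, internal start held more ends than the first in each experiment. The window of the second start (chr15:81811414) held 38, 16 and 37 ends, at relative densities of 53.3 (37.7 to 73.1), 7.39 (4.23 to 12.0) and 29.4 (20.7 to 40.5). These densities exceeded 98.9%, 95% and 99.7% of all start windows, and the window held 49.4%, 29.6% and 50.7% of all Tef ends. The first start (chr15:81802673) had 6, 10 and 10 ends, at 8.41 (3.09 to 18.3), 4.62 (2.22 to 8.50) and 7.94 (3.81 to 14.6). In experiments 1 and 3 the intervals of the starts were apart, and in experiment 2 they overlapped, so that a difference there was not larger than counting error. The densest bin of 500 bp was the same in all 3 experiments, 8500 to 9000 bp from the first start, with 17, 7 and 15 ends. In between the start windows 6.74 kb held 5, 8 and 7 ends, near the genome's mean in experiments 2 and 3 (1.10 and 1.65). After the second start 13.4 kb held 20, 12 and 12 ends, so that experiment 1, at 4.17 (2.55 to 6.44), kept more ends in the body than experiment 2, at 0.825 (0.426 to 1.44).

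In Nfil3 the ends gathered at the only start the promoter table gives (chr13:52981039), although the annotated span reaches further upstream, to 52982878. Its window held 15, 20 and 16 ends, at 21.0 (11.8 to 34.7), 9.24 (5.65 to 14.3) and 12.7 (7.26 to 20.6), with overlapping intervals in all 3 experiments. This was 41.7%, 41.7% and 41.0% of the Nfil3 ends. In experiment 2 the Nfil3 start, above 97.3% of all start windows, was the densest of the members' 5 starts, and in experiments 1 and 3 it exceeded 89.8% and 93.5%. The annotated end of Nfil3 was nearly bare, with 0, 2 and 0 ends in the window of 1 kb on either side, and the counts of 0 have upper bounds of 5.17 and 2.93 on the relative density. The ratio of ends at the gene's end to ends at its start was 0.0392 with the experiments together, above 4.12% of 1310 genes compared in the same way (those with 1 start in the promoter table, a span over 4 kb and ends above the mean in all 3 experiments), whose median was 0.219.

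Dbp had many ends at both its start and its annotated end. Its start window (chr7:45705247) had 27, 12 and 9 ends, at 37.8 (24.9 to 55.1), 5.55 (2.87 to 9.69) and 7.14 (3.27 to 13.6), while the window at its annotated end had 61, 9 and 18, at 85.5 (65.4 to 110), 4.16 (1.90 to 7.90) and 14.3 (8.47 to 22.6). The end window was denser than the start window in experiments 1 and 3 and less dense in experiment 2, and the intervals were apart only in experiment 1. With the experiments together it had 1.83 times as many ends as the start, above 95.3% of the 1310 genes, and of the 88 ends there 61 came from experiment 1. The first kb past the annotated end had 40, 8 and 14 ends at 37, 8 and 13 distinct positions and relative densities of 112 (80.1 to 153), 7.40 (3.19 to 14.6) and 22.2 (12.2 to 37.3). The last kb inside the gene had 21, 1 and 4 ends. The densest bin of 500 bp in experiment 1, with 24 ends, began 5500 bp from the start, and in experiments 2 and 3 a bin of 8 ends lay 1500 to 2000 bp from it, inside the gene. In experiment 3 a bin past the annotated end, at 5000 to 5500 bp, also had 8.

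Dbp has close neighbours, and these bear on its ends. Sphk2, a sphingosine kinase gene on the other strand, overlaps the last 741 bp of Dbp and extends away from it (chr7:45709463-45718002), so the ends past Dbp lie over Sphk2 too, and PET ends carry no strand that would assign them. Over the span of Sphk2 alone the relative density was 34.8, 3.79 and 7.62. Further on, inside Sphk2, the plot of ends along the genes shows another group of ends in each experiment, which is not counted for Dbp. Dbp without the shared stretch had 83, 33 and 25 ends, at 53.4, 6.99 and 9.10, against 52.2, 6.16 and 8.71 over the whole span without flanks. Car11, a carbonic anhydrase-related gene ending 412 bp before Dbp, had few ends over its span, at 3.05 (1.12 to 6.64), 0.838 (0.272 to 1.96) and 1.15 (0.314 to 2.95). The other members stand apart from their neighbours by 6403 bp or more. Zc3h7b, next to Tef, had 1.32, 0.904 and 1.71 over its span, and Tob2, an antiproliferative gene on the other side, had 8.64, 2.48 and 5.84. Mmd and Stxbp4 beside Hlf had 2.39, 1.29 and 2.55, and 0.920, 1.25 and 1.23. Auh and Ror2 beside Nfil3 had 0.889, 1.46 and 1.24, and 1.22, 1.16 and 1.35. Over its span without flanks Nfil3 had 6.44, 2.48 and 3.45, denser than both its neighbours in every experiment. Tef over its span alone had 8.35, 1.80 and 4.07, below Tob2 in each experiment. These values lay within the Tob2 interval in experiments 1 (5.87 to 12.3) and 2 (1.64 to 3.61). In experiment 3 the Tef value lay just below that interval (4.11 to 8.05).

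Hlf had no concentration of ends at its start (chr11:90390917) in experiments 1 and 2, with 1 and 2 ends, against 7 ends in experiment 3, at 5.55 (2.23 to 11.4). The intervals of experiment 1, 1.40 (0.0355 to 7.81), and of experiment 2, 0.924 (0.112 to 3.34), overlap that of experiment 3. A difference between the pools in this window was not tested. Between the windows at its start and end, 52.4 kb held 30, 69 and 60 ends, at 1.61, 1.22 and 1.82. The densest bin of 500 bp in Hlf held 3 ends in experiments 1 and 2 and 5 in experiment 3, the last at 35000 to 35500 bp from the start.

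Experiments 1, 2 and 3 had 227, 217 and 211 PETs with an end over a member. Of these 655 PETs, 116 joined ends at most 8 kb apart, 39 joined ends on one chromosome more than 8 kb apart, and 500 joined different chromosomes. The short ones made up 32.2% (26.1% to 38.7%, exact binomial interval), 8.76% (5.35% to 13.3%) and 11.4% (7.43% to 16.5%) of the PETs of these pools. PETs with an end over any protein-coding gene gave 20.4%, 5.12% and 11.9%. The interval of the members lay above these values in experiments 1 and 2 and held that of experiment 3. That baseline counts a PET once however many genes it joins, so it is not built like the share of a single gene. All nuclear PETs gave 22.5%, 6.23% and 14.8%. Against these the interval of the members lay above in experiment 1 only and held the value in experiments 2 and 3. By gene, the share in experiment 1 was 31.6% for Dbp, 37.5% for Tef, 38.5% for Nfil3 and 17.9% for Hlf. Hlf had the lowest share in experiments 1 and 2, 17.9% and 2.56%, and Nfil3 the lowest in experiment 3, 8.33%, and the intervals of the 4 genes overlap in each experiment.

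**Figure D3:**
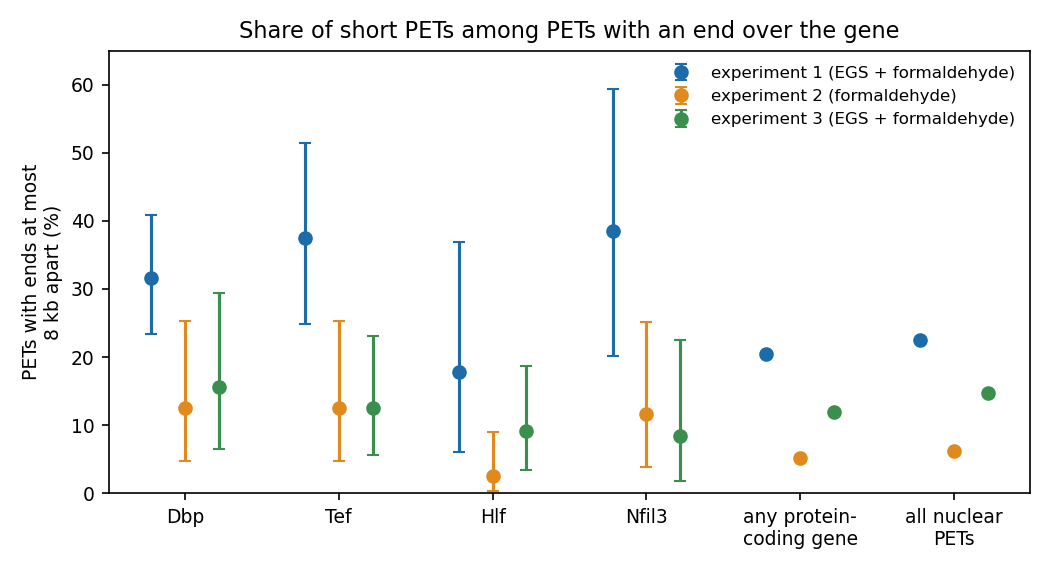
Percentage of PETs whose ends lie at most 8 kb apart, among PETs with an end over each gene, over any protein-coding gene and among all nuclear PETs, by experiment. Bars are 95% exact binomial intervals for the members; experiment 1 is highest for each gene and experiment 2 is lowest or level with experiment 3 except for Nfil3, where experiment 3 is lowest.

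Most short PETs spanned well under 1 kb. Their median distance was 268.5 bp over Dbp, 261 bp over Tef, 242 bp over Hlf and 395 bp over Nfil3, against 278 bp over the genome. Of the 116, 15 spanned over 1 kb: 8 in Dbp, 4 in Tef, 3 in Nfil3 and 0 in Hlf. In Dbp, a PET of experiment 1 joined position -128 before the start with 2035 inside the gene, and one of experiment 3 joined 284 with 1754. The longest was in Nfil3, where a PET of experiment 1 spanned 5668 bp from -790 before the start to 4878 in the gene. In Tef, 2 of the 4 began at one position, 8193 bp from the first start and before the second, and ended 2 bp apart, at 9935 and 9937. Both came from experiment 1, and whether they are copies of one molecule was not tested.

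PETs that joined a member to a place over 8 kb away on its chromosome numbered 10 for Dbp, 12 for Tef, 11 for Hlf and 6 for Nfil3, with 10, 12 and 17 in experiments 1, 2 and 3. Most lay far off: 31 of 39 spanned over 10 Mb and the median was 32.8 Mb, near the 37.4 Mb over all protein-coding genes. Within 1 Mb were 5 of 39, or 12.8%, against 4.99% for any gene, a contrast that rests on few PETs and was not tested. For each 1000 ends there were 6.48 over the members and 1.81 over any gene. The latter rate is lowered because a PET between genes counts once there but adds both its ends. The 5 include a PET inside Tef and one inside Hlf, with both ends in the member. Of these 5, 4 came from experiment 3 and 1 from experiment 2. Experiment 3 also had the highest share within 1 Mb over any gene, 8.81%, against 6.48% and 2.16% in experiments 1 and 2.

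**Figure D4:**
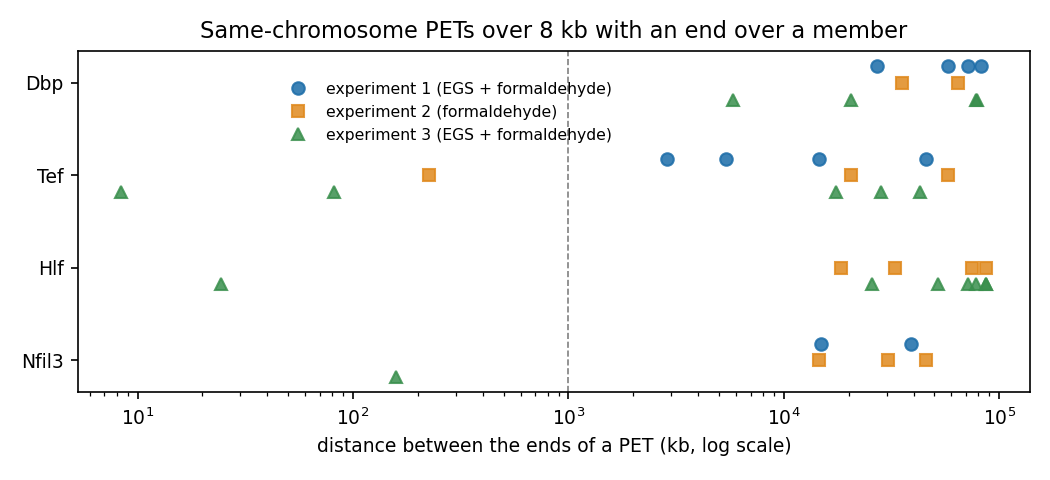
Distance in kb (log axis) between the ends of each same-chromosome PET over 8 kb with an end over Dbp, Tef, Hlf or Nfil3, one point for each PET, coloured by experiment, with a dashed line at 1000 kb. Only 5 of 39 points lie left of the line, 3 of them for Tef and none for Dbp.

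Tef had 3 of the 5 near contacts, each with an end by a Tef start. In experiment 3, 1 PET joined the starts to each other, from position -182 at the first start to -517 at the second, 8406 bp apart. Also in experiment 3, 1 PET ran 81.8 kb from 411 bp after the second start to within Rangap1, the gene of a nuclear transport GTPase activator. In experiment 2, 1 PET ran 226 kb from 974 bp after the second start to within Ep300, which encodes a histone acetyltransferase and coactivator. In Hlf, 1 PET of experiment 3 joined positions 10950 and 35406 bp from the start, 24456 bp apart inside the gene, the latter in the densest bin of Hlf in that experiment. In Nfil3, 1 PET of experiment 3 ran 158 kb from 1251 bp inside the gene to a place 13.4 kb from Auh. Dbp had no PET within 1 Mb, and its nearest far end lay 5.79 Mb away, 10.2 kb from Ano5. Each of these is a single PET, and no pair of genes was joined by more than 1.

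The partners of the members were compared with ends in general by how often they lay over genes. On the same chromosome 22 of 39 far ends, or 56.4% (39.6% to 72.2%), lay within 2.5 kb of a protein-coding gene, against 51.1% of all such ends, a difference within counting error. On other chromosomes it was 279 of 500, or 55.8% (51.3% to 60.2%, exact binomial intervals). Of all ends of PETs between chromosomes it was 49.9%, just below that interval. The pools are mixed differently in these sets. Experiment 2 gave 186 of the 500 member PETs but 1275871 of the 2294907 between chromosomes in all. The shares were not compared by experiment, so no excess is read from them. Among the 40 listed genes and the 4 members, 1 PET of the 655 joined a member to a listed gene: Tef with Alb, the albumin gene, in experiment 1 (chr5:90472495). No PET joined one member to another.

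The other genes of the pathway ran from above the density of Dbp to below the genome's mean. Of 29 genes on lists of D-box clock genes, regulators of the members, liver outputs and related bZIP factors, 15 passed the test above the mean in every experiment, against 11.6% of all genes. The lists were drawn up with earlier results of these data known, and no set test was made.

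**Figure D5:**
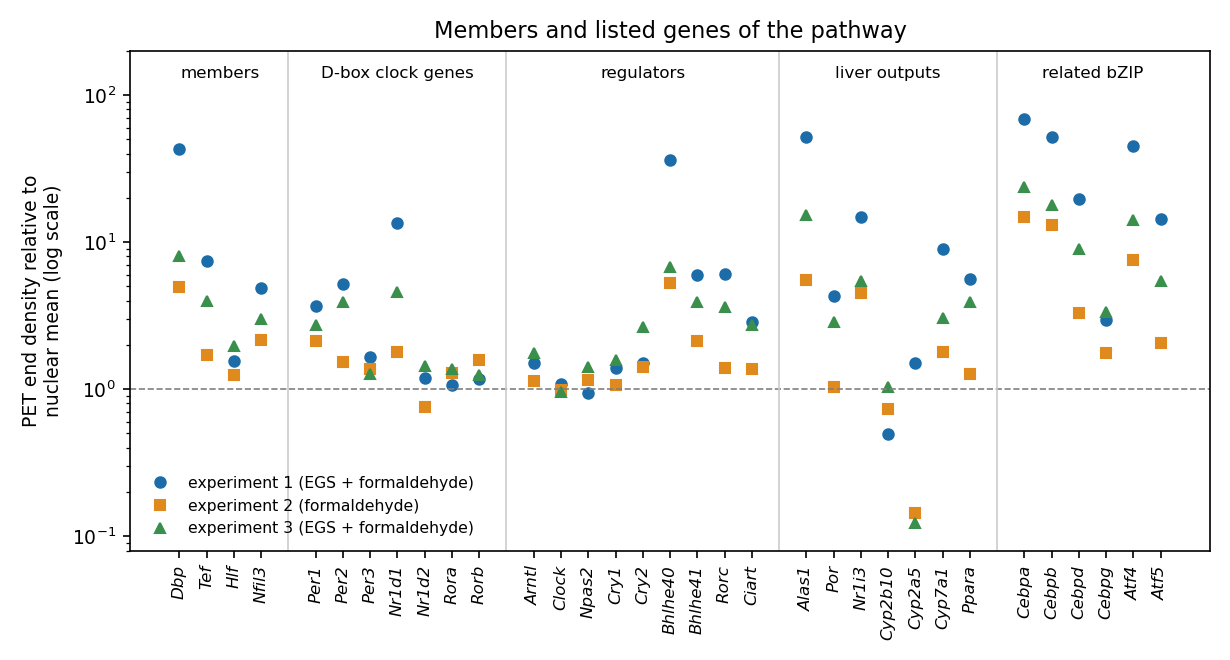
Relative density of PET ends (log axis, dashed line at 1) over the 4 members and 29 genes of the pathway in the 3 experiments. Circles are experiment 1, squares experiment 2 and triangles experiment 3; Cebpa, Cebpb and Atf4 lie above Dbp in every experiment, and Per1, Per2 and Nr1d1 lie below it.

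Among the targets, 3 of 7 D-box clock genes were above the mean in all 3 experiments, and the list's median was 1.65, 1.53 and 1.43. The PAR bZIP target Per1 had 3.67, 2.14 and 2.72, Per2, its partner in the repressing arm of the clock, had 5.16, 1.53 and 3.91, and Nr1d1, which encodes REV-ERBα, had 13.5, 1.78 and 4.59. All 3 lay under Dbp in every experiment. Of 7 liver output genes, 4 were above the mean in all 3 experiments, and the median was 5.61, 1.27 and 3.07. Alas1, the first enzyme of heme synthesis, had 51.5, 5.50 and 15.3, above Dbp in each experiment, and Nr1i3, the nuclear receptor CAR, had 14.7, 4.48 and 5.45. Cyp7a1, the rate-limiting enzyme of bile acid synthesis, had 8.96, 1.79 and 3.07, and Ppara, a receptor of fatty acid metabolism, 5.61, 1.27 and 3.90. Cyp2b10, with 0.495, 0.735 and 1.03, and Cyp2a5, with 1.52, 0.143 and 0.123, passed in no experiment. Both belong to families of near-identical copies, and whether this lowered their values was not tested.

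Among the regulators, 2 of 9 were above the mean in all 3 experiments, Bhlhe40 with 36.0, 5.24 and 6.75 and Bhlhe41 with 5.99, 2.13 and 3.91. Both encode E-box repressors of the clock, and Bhlhe40 lay within the Poisson intervals of Dbp in experiments 2 and 3 and just below it in experiment 1. The activator Arntl had 1.5, 1.13 and 1.76 and passed in experiments 1 and 3 (adjusted p 0.00276 and 9.2e-10, exact Poisson test), and Clock, with 1.09, 0.991 and 0.962, passed in no experiment. The related bZIP factors, which share the bZIP fold of the members, were above the mean in all 3 experiments in 6 of 6 cases, with medians of 32.5, 5.42 and 11.6. Cebpa, the main C/EBP factor of hepatocytes, had 68.3, 14.9 and 23.7 and Cebpb 52.1, 13.1 and 17.8, both above Dbp throughout, and Atf4, a stress response factor, had 45.3, 7.54 and 14.2. Cebpd (19.7, 3.31 and 8.97) and Atf5 (14.3, 2.07 and 5.40) lay between Dbp and Nfil3 in experiment 1, and Cebpg (2.96, 1.77 and 3.36) lay below Nfil3 there.

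The genes most like each member were found by the Euclidean distance between log2 relative densities over the 3 experiments, among 13427 genes with at least 50 ends. Nearest to Dbp was Trf, the transferrin gene, at a distance of 0.19, with 42.8, 5.11 and 9.08, followed by Nudt7 at 0.24. Nearest to Tef were Slc27a2, a fatty acid transport gene, at 0.04, Clk2 at 0.08 and Mydgf at 0.08. Nearest to Nfil3 were Med21 at 0.03, Ypel5 at 0.06 and Abcb6 at 0.07, and nearest to Hlf were Nr4a3 at 0.04, Sned1 at 0.04 and Diaph1 at 0.05. A distance over 3 pools is a description of these pools.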

How the data were processed

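Pol II ChIA-PET libraries of mouse liver were deposited as 1 table, a row for each PET, whose columns, from their values, hold the experiment, linkers, chromosomes, positions and distance. These base positions are the authors' deposited values, used as given. Bowtie2 and build mm10, which is GRCm38, are named per the submitters' processing notes, and the tag length, any filters and the removal of duplicates were not given in the sources used here. No column names a library, so count models of libraries, planned in case one did, were not run, and 0 columns of samples were left unmapped.

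PETs with a mitochondrial end were left out (0 of them touched a member). Ends were counted over RefSeq gene spans and 2.5 kb of flank, and divided by the nuclear mean over 2.66 Gb, from the first to the last end of each chromosome. Genes were tested by exact Poisson tests against that mean and by exact binomial tests between pools, with Benjamini-Hochberg adjustment over 21887 genes and a threshold of 0.05. The code was tested on simulated counts. Python 3.11.15, NumPy 2.4.6, pandas 2.3.3, SciPy 1.17.1 and matplotlib 3.10.9 were used.

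The members and lists were chosen with earlier results of these data known. Named were the members, their neighbours, listed genes above the mean in all 3 experiments and the 3 genes most like each member, of which 1 for Dbp is not reported here; Arntl, Clock, Cyp2b10, Cyp2a5, Serpina1c, Alb and genes at far ends were named after their values were seen. The pools hold 474478 to 1438866 PETs, and a pool's value has no replicate. Alternatives were other flanks, PET classes, scales, linkers, duplicates and windows, and pools left out in turn.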

Additional observations from a re-analysis of the deposited data

How the results depend on the processing

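No paired analysis was possible because the deposited table names no library, so no replicate number can be tied to a PET. Of 257 values of 47 results under other settings, 220 were labelled the same. Tests and ratios of members had to keep their direction and their side of the threshold. Pooled densities and shares had to stay within their interval. Counts had only to stay within a fixed factor, a looser rule. A fall from 5472 to 3798 genes above the mean in experiment 2, with the mean over 10 kb bins, was labelled the same. Of the 12 tests of a member in an experiment 11 passed, and 9 to 11 did under the alternatives. The relative density of Hlf in experiment 2 turned below the mean in the window of 1 kb around its start (0.924) and with PETs within 8 kb only (0.99971), and did not pass the test in either. The ratio of Nfil3 between experiments 1 and 3 turned to 0.848 with PETs between chromosomes only. With these PETs 2699 genes passed between experiments 1 and 2, in place of 4864, and 645 between experiments 1 and 3, in place of 1998; fewer ends were tested. Without experiment 3 there were 22 PETs over 8 kb in place of 39, and 1 within 1 Mb in place of 5. Dbp over the pools together was 12.4, and between 6.07 and 20.6 with a pool left out. A mean over 10 kb bins with an end, and counting each PET once, were chosen after seeing the data and ended the call of Hlf in experiment 1. The members have 33 to 154 ends in an experiment, which limits the precision of each value.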
